A study of Mus musculus with 15 samples.

Results

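The laminin chains described here are the products of 9 mouse genes, Lama1, Lama2, Lama3, Lama4, Lama5, Lamb2, Lamb3, Lamc1 and Lamc3. They were taken as every non-control probe on the array whose gene name is one of these symbols, which gave 11 probes of 55681 and 9 gene names of 34832. Lama2 and Lama3 had a pair of probes each and the other genes 1 probe each. The other chains of the family were not analysed here. RNA was measured on 15 single-colour arrays carrying primary mouse alveolar type II (ATII) cells, the surfactant-making epithelial cells of the alveolus, or primary lung fibroblasts. Cells of both types received β-aminopropionitrile (BAPN), an irreversible inhibitor of the collagen cross-linking lysyl oxidases, at 1 mM in phosphate-buffered saline, or the saline alone as vehicle, for 24 h. There were 4 ATII BAPN, 4 ATII vehicle, 3 fibroblast BAPN and 4 fibroblast vehicle arrays.

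According to the labels' protocols, the ATII cells had been at an air-liquid interface for 3 days until they formed a monolayer, while the fibroblasts had gone through 3 or more passages and then a 24 h starvation. Cell type and culture history therefore cannot be told apart. The labels name no strain, age or genotype, and they do not say whether arrays of a group came from separate animals or cultures, and the p-values thus reflect only how far these arrays vary, possibly for technical reasons.

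Laminins are heterotrimers of an α, a β and a γ chain, many of them cross-shaped. They are part of the basement membrane sheet to which cells attach. The α chain carries the globular end that binds integrins, dystroglycan and syndecans, and the chains a cell makes determine which trimers it can secrete. In the lung, basement membranes underlie the alveolar epithelium and surround capillaries and smooth muscle.

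The probes were 60 bases long. The probes of Lama1, Lama4, Lama5, Lamb2 and Lamc1 hold a frame without stop codons and no polyadenylation signal (AATAAA). So do a probe of Lama2 and a probe of Lama3. Of these, the probes of Lama4 and Lamb2, both lower in ATII cells than in fibroblasts, are shown here. They are in lower case, 5′ to 3′, as the array's design gives them. Their positions are in mouse build mm9 according to that design, in the genes named. No annotation of that build was used, so exon and UTR are not assigned here.
Lama4, chr10:38825794-38825853, plus strand: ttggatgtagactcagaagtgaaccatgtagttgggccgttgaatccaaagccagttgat
Lamb2, chr9:108392189-108392248, plus strand: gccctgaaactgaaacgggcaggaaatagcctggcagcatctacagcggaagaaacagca
The 2 Lama2 probes start 126 bp apart and the 2 Lama3 probes 391 bp apart. In each pair they are called the upstream and the downstream probe by the direction of transcription.

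RefSeq promoter windows (assembly GRCm38.p6) matched 4 of the 9 genes. The 250 bases before the start are shown for a gene of each pattern below, namely Lamb3 (higher in ATII cells), Lamb2 (lower) and Lama5 (no difference past the threshold in either comparison of the cell types). Capitals mark the motifs searched on both strands, which were the AP-1 motif TGANTCA, the GC box GGGCGG and the E-box CAGGTG, with no overlap between matches.
Lamb3, chr1:193301744-193301993, plus strand: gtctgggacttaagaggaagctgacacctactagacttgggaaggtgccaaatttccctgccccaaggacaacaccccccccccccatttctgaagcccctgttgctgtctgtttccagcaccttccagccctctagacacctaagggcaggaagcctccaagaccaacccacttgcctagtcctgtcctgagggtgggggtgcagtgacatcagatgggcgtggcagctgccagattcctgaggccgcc
Lamb2, chr9:108479612-108479861, plus strand: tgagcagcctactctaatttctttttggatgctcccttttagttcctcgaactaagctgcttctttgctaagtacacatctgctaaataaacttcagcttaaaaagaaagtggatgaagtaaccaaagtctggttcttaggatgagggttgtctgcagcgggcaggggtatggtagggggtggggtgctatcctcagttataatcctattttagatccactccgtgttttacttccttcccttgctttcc
Lama5, chr2:180225860-180226109, minus strand: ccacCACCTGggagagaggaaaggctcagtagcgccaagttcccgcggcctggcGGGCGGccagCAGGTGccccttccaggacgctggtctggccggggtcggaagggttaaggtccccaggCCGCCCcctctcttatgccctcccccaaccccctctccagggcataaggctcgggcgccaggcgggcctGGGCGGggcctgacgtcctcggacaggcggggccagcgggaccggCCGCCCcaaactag
The Lama5 window held 4 GC boxes and 2 E-boxes and had a GC content of 72.4%. The Lamb3 window (58.8% GC) and the Lamb2 window (43.6% GC) held 0 of these motifs. Lamb3 has a second RefSeq start, whose window (chr1:193301993-193302242, 61.2% GC) held 1 E-box and is not shown. Of 32851 windows of the same length, 32.7% held a GC box, 17.2% this E-box and 6.75% the AP-1 motif. These matches describe the letters and were not set against binding data.

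Levels are log2 processed intensities relative to the 75th percentile of the array, so 0 is that percentile, and a level is compared between arrays for 1 probe only. On each array 65.2% to 71.2% of 59305 non-control spots exceeded background clearly, 0 spots were saturated, and replicate arrays of a group correlated with r of 0.976 to 0.992 across probes. The number of arrays limits the precision. Of the 11 probes, 10 were well above background on all 15 arrays. The Lama3 downstream probe was so on all 8 ATII arrays and on 0 of 7 fibroblast arrays.

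The labelled cell types were set against their defining markers. Of 10 ATII markers, 8 were well above background on all ATII arrays of either treatment, among them the surfactant genes Sftpc and Sftpb and the lung epithelial regulator Nkx2-1, and the phosphate transporter gene Slc34a2 was so on no ATII array. On fibroblast arrays, 5 of the 10 were above background throughout with either treatment, 4 were so on no BAPN array (Sftpb, Sftpa1, Slc34a2 and Nkx2-1) and 5 on no vehicle array (these and Sftpc). The summed linear level of the 10 was 39.4 to 43.3 in ATII BAPN and 39.8 to 42.8 in ATII vehicle arrays, against 29.1 to 36.9 in fibroblast BAPN and 28.1 to 32.0 in fibroblast vehicle arrays. The summed linear level of 6 epithelial markers was 651 to 842 in ATII BAPN and 549 to 731 in ATII vehicle arrays, against 3.52 to 17.3 in fibroblast BAPN and 3.58 to 16.9 in fibroblast vehicle arrays, where the E-cadherin gene Cdh1 was at background. All 9 fibroblast markers were above background on every array, with sums of 1074 to 1438 (ATII BAPN), 983 to 1310 (ATII vehicle), 1077 to 1421 (fibroblast BAPN) and 1002 to 1367 (fibroblast vehicle). Their mean log2 levels did not overlap, at 3.83 to 4.18 (ATII BAPN) and 3.97 to 4.23 (ATII vehicle), against 4.81 to 5.01 (fibroblast BAPN) and 4.68 to 4.82 (fibroblast vehicle). By limma 3 of the 9 were lower in ATII cells with vehicle and 5 with BAPN, and 0 were higher. Of 5 alveolar type I markers tested with vehicle, 3 were higher in ATII cells (Aqp5 by 4.76) and 1 was lower (Cav1, −1.81). With BAPN, 3 of 6 were higher and 2 lower. Of 5 basal airway markers, 2 were higher and 0 lower in either comparison. Over all probes, 14.7% were higher and 18.8% lower with vehicle, and 13.8% and 17.2% with BAPN. The part of these markers in the laminin changes was not tested. In RNA from whole cultures, fewer cells of a type and less RNA per cell cannot be told apart.

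A pair of fibroblast arrays stood apart. The mean level of 4 mesothelial markers (Msln, Upk3b, Wt1 and Lrrn4) was −3.97 on fibroblast BAPN replicate 2, against 1.58 and 0.71 on the other fibroblast BAPN arrays. It was −4.53 on fibroblast vehicle replicate 2, against 1.56, −0.18 and 0.95 on the other fibroblast vehicle arrays. On ATII arrays the same mean was 2.21 to 2.55 with BAPN and 1.68 to 2.22 with vehicle. Results on fibroblasts are therefore also given without both arrays numbered 2, an alternative chosen after the values were seen.

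The cell types differed in the laminin chains they expressed. Lama3 and Lamb3, the α and β chains of the laminin that anchors epithelial cells through hemidesmosomes, were higher in ATII cells, Lamb3 by 156-fold. Lama2, Lama4 and Lamb2, chains of mesenchymal, vascular and muscle basement membranes, were lower in ATII cells by 2.22-fold to 3.45-fold in vehicle cultures. Macrophage markers and some smooth muscle markers were also lower in ATII cells. Of 6 macrophage markers, all above background on every array, 6 were lower in ATII vehicle cells (median change −1.71) and 5 with BAPN (−1.82), with summed linear levels of 4.82 to 5.88 (ATII BAPN) and 4.89 to 6.31 (ATII vehicle), against 15.8 to 28.2 (fibroblast BAPN) and 15.8 to 26.4 (fibroblast vehicle). Of 5 smooth muscle markers, 3 were lower and 1 higher with vehicle, and 2 lower and 1 higher with BAPN, with sums of 955 to 1174 (ATII BAPN) and 827 to 1089 (ATII vehicle), against 1145 to 1466 (fibroblast BAPN) and 1143 to 1600 (fibroblast vehicle). The part of these and of the fibroblast markers in the laminin changes was not tested. Lama1, Lama5, Lamc1 and Lamc3 did not pass the test.

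Of the 11 probes, 7 passed in vehicle arrays (3 higher and 4 lower in ATII cells; limma with Benjamini-Hochberg adjustment over all probes tested, threshold 0.05), where 33.5% of all 39079 probes tested passed (14.7% higher, 18.8% lower). One of the 7, the downstream Lama3 probe, entered the test only through the ATII arrays, where it is high, so it had to differ. The same 7 probes passed, in the same directions, in BAPN arrays, where 31% of 38828 probes passed (13.8% higher, 17.2% lower). Groups did not overlap for 8 of 11 probes in vehicle arrays, where this held for 36.6% of all probes (15.5% higher, 21.1% lower), and for 7 of 11 in BAPN arrays, where it held for 35.6% (15.7% higher, 19.9% lower). These 2 comparisons share no array, but 1 fit gave the spread for both. The median change over all probes was −0.15 in vehicle arrays and −0.01 after quantile scaling, so small changes depend on the scaling.

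**Figure D1:**
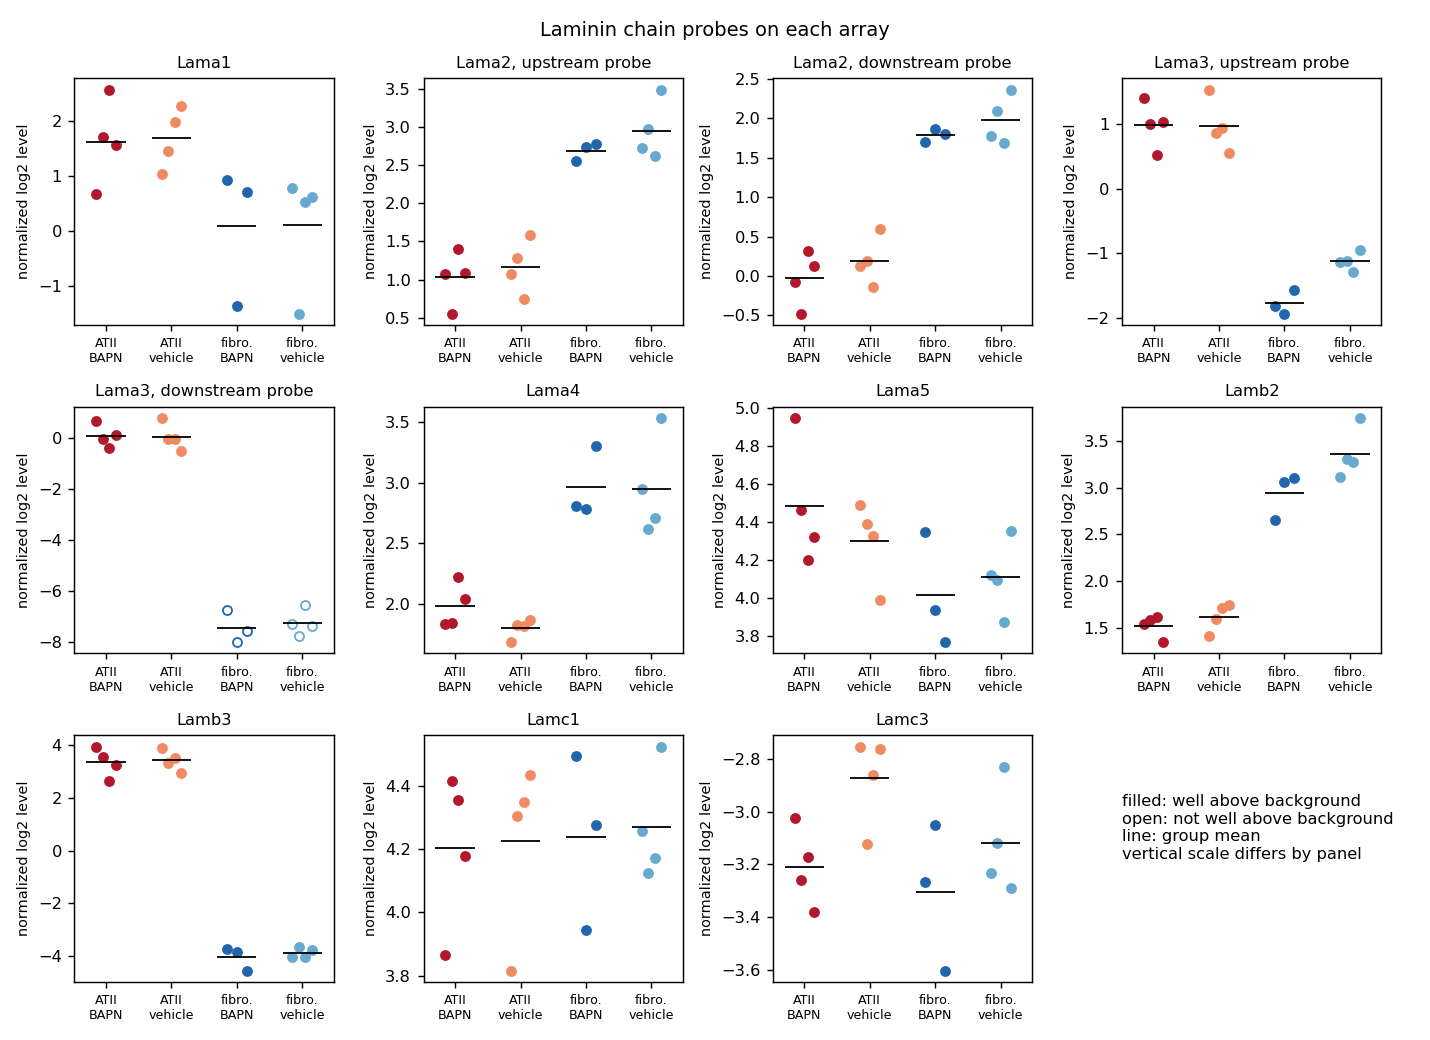
Normalized log2 level of each laminin probe on each of the 15 arrays (vertical axis, 0 is the array's 75th percentile), by group. Filled points were well above background, open points were not, lines are group means, and the vertical scale differs between panels. Lama3 and Lamb3 lie higher on all 8 ATII arrays than on all 7 fibroblast arrays, Lama2, Lama4 and Lamb2 lie lower, and Lama5, Lamc1 and Lamc3 overlap.

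Lama2 encodes the α chain of muscle and nerve basement membranes, whose loss causes muscular dystrophy in mice. Its upstream probe had levels of 1.07, 0.55, 1.39 and 1.09 on ATII BAPN arrays and 1.07, 1.28, 0.74 and 1.58 on ATII vehicle arrays. On fibroblast arrays the levels were 2.55, 2.74 and 2.77 with BAPN and 2.73, 2.97, 2.61 and 3.49 with vehicle. All ATII arrays lay below all fibroblast arrays. The change was −1.78 ± 0.23 in vehicle arrays (log2, SE, 3.43-fold lower; adjusted p = 3.86e-05) and −1.66 ± 0.24 in BAPN arrays (adjusted p = 0.000158). The downstream Lama2 probe gave −1.79 ± 0.20 (adjusted p = 1.26e-05) and −1.82 ± 0.22 (adjusted p = 2.58e-05) in the same comparisons, so both probes of the gene showed changes of a like size.

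Lama4, the α chain prominent in blood vessel walls and mesenchyme, was at 1.83, 1.85, 2.22 and 2.05 on ATII BAPN arrays and at 1.69, 1.83, 1.82 and 1.87 on ATII vehicle arrays. Its levels were 2.81, 2.78 and 3.30 on fibroblast BAPN arrays and 2.95, 2.62, 2.71 and 3.53 on fibroblast vehicle arrays. The ATII arrays were all lower, and the fibroblast arrays were more spread out. Lama4 was lower by −1.15 ± 0.19 in ATII vehicle cells (log2, SE; 2.22-fold, adjusted p = 0.000317) and by −0.98 ± 0.20 with BAPN (adjusted p = 0.00219). On slide 2 alone the changes of Lama4 were −1.23 with vehicle (adjusted p = 0.0627, 2 arrays a group) and −0.82 with BAPN (adjusted p = 0.31), and neither passed. Slide 2 holds 1 ATII BAPN array, which that fit assumes to vary like the other groups.

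Lama3 encodes an α chain of epithelial basement membranes. The levels of its upstream probe were 1.39, 1.00, 0.52 and 1.03 on ATII BAPN arrays and 1.53, 0.85, 0.94 and 0.54 on ATII vehicle arrays. On fibroblast arrays they were −1.82, −1.93 and −1.56 with BAPN and −1.14, −1.12, −1.29 and −0.95 with vehicle. The groups of the cell types did not overlap, and all fibroblast arrays were above background for this probe. The change was 2.09 ± 0.21 in vehicle arrays (4.26-fold higher in ATII cells, adjusted p = 4.52e-06) and 2.76 ± 0.23 in BAPN arrays (6.76-fold, adjusted p = 8.54e-07).

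The downstream Lama3 probe differed more. It was at 0.65, −0.06, −0.41 and 0.10 on ATII BAPN arrays and at 0.76, −0.08, −0.06 and −0.54 on ATII vehicle arrays. No fibroblast array was well above background for it, so only a bound can be given, with the fibroblast arrays set to the higher of the probe's own signal and the lowest signal well above background on the array. By this bound, ATII cells exceeded fibroblasts at least 39.2-fold with vehicle and at least 50.3-fold with BAPN in the processed intensities. It does not hold across background steps, since with normexp the fitted changes were 11.6-fold and 11.9-fold. The fitted changes of the main limma fit, which rest on fibroblast values below background, were 7.26 (adjusted p = 4.59e-09) and 7.50 (adjusted p = 9.65e-09). The measured means were 0.02 and −7.24 in vehicle arrays and 0.07 and −7.44 in BAPN arrays, ATII cells before fibroblasts. The 2 probes of Lama3 thus agree in direction and disagree in size, and the cause was not tested.

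Lama5, the most widespread α chain of adult epithelia, was well above background on every array of both cell types. Its levels were 4.95, 4.46, 4.20 and 4.32 (ATII BAPN), 4.49, 4.39, 4.33 and 3.99 (ATII vehicle), 4.35, 3.94 and 3.77 (fibroblast BAPN) and 4.12, 4.10, 3.88 and 4.35 (fibroblast vehicle). The groups overlapped. The change between the cell types was 0.19 ± 0.18 with vehicle (adjusted p = 0.483, 95% interval −0.21 to 0.58) and 0.47 ± 0.20 with BAPN (adjusted p = 0.0923). The second of these passed the threshold in 4 alternatives, which were quantile scaling (0.55, adjusted p = 0.0426), the deposited table (0.54, adjusted p = 0.0431), the fit without fibroblast BAPN replicate 1 (0.63, adjusted p = 0.0365) and that without ATII BAPN replicate 4 (0.56, adjusted p = 0.0479).

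Lamb3, the β chain that pairs with the Lama3 product, showed a wide gap. It had levels of 3.94, 3.56, 2.63 and 3.23 on ATII BAPN arrays and 3.88, 3.33, 3.52 and 2.95 on ATII vehicle arrays. The fibroblast arrays had −3.73, −3.82 and −4.54 with BAPN and −4.02, −3.66, −4.02 and −3.75 with vehicle, dim but above background on all 7. Lamb3 was higher by 7.29 ± 0.28 in ATII vehicle cells (156-fold, adjusted p = 6.67e-10) and by 7.37 ± 0.30 with BAPN (165-fold, adjusted p = 1.72e-09). The size depended on the background step, since with normexp the changes of Lamb3 were 5.95 (61.9-fold) and 6.00 (64-fold). Within slide 1 the change of Lamb3 in vehicle arrays was 7.72 and within slide 2 it was 6.85.

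Lamb2, a β chain of vascular, muscle and glomerular basement membranes, had the opposite direction. Its levels were 1.54, 1.58, 1.62 and 1.35 on ATII BAPN arrays and 1.41, 1.59, 1.72 and 1.74 on ATII vehicle arrays, against 2.66, 3.06 and 3.098 on fibroblast BAPN arrays and 3.12, 3.31, 3.27 and 3.74 on fibroblast vehicle arrays. The ATII arrays lay close together and below every fibroblast array. The change was −1.74 ± 0.15 with vehicle (3.35-fold lower, adjusted p = 9.63e-07) and −1.42 ± 0.16 with BAPN (2.67-fold lower, adjusted p = 1.56e-05).

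Lamc1 encodes the γ chain that most laminins contain. It was at 3.87 to 4.42 on ATII BAPN arrays and 3.82 to 4.43 on ATII vehicle arrays, and at 3.95 to 4.49 on fibroblast BAPN arrays and 4.12 to 4.53 on fibroblast vehicle arrays. The ranges overlapped, and the change of Lamc1 was −0.04 ± 0.17 with vehicle (adjusted p = 0.875), with a 95% interval of −0.42 to 0.33. Lamc3, a γ chain known from brain and retina, was dim, with group means of −3.21 ± 0.15 (ATII BAPN), −2.87 ± 0.17 (ATII vehicle), −3.31 ± 0.28 (fibroblast BAPN) and −3.12 ± 0.20 (fibroblast vehicle; SD, n = 4, 4, 3 and 4). Its change between the cell types in vehicle arrays, 0.24 ± 0.15 (adjusted p = 0.235), passed with quantile scaling (0.46, adjusted p = 0.033) and in the deposited table (0.46, adjusted p = 0.035).

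**Figure D2:**
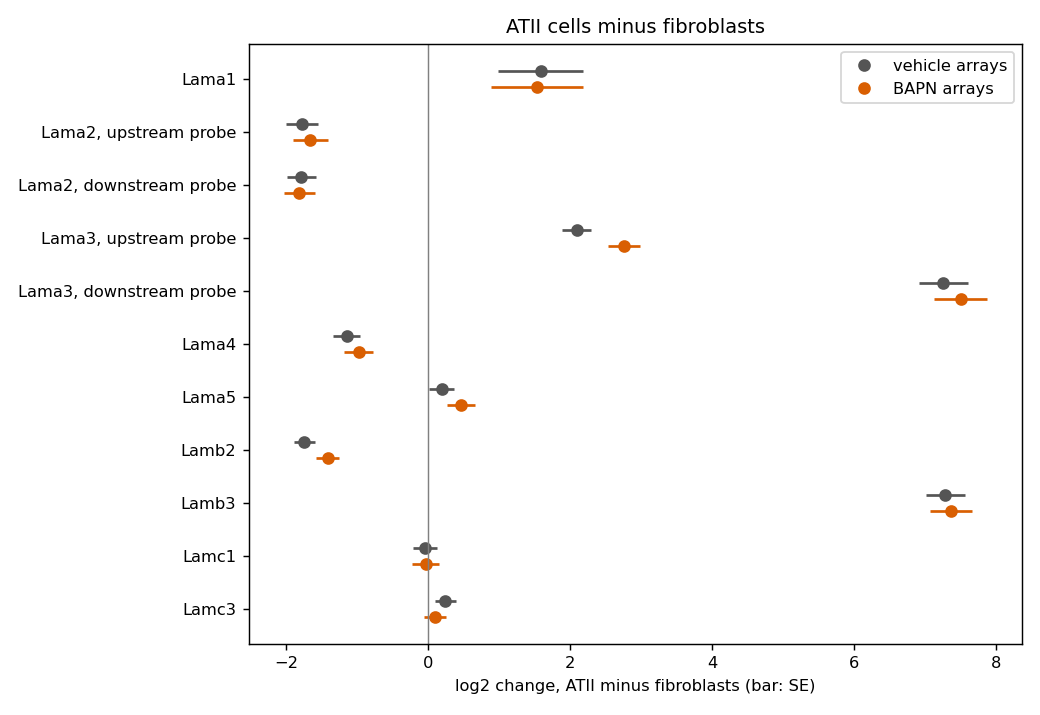
Log2 change of each laminin probe in ATII cells minus fibroblasts (horizontal axis), in vehicle arrays and in BAPN arrays, with bars of 1 SE. Lamb3 and the downstream Lama3 probe lie above 7, Lama2, Lama4 and Lamb2 between −1.82 and −0.98, and Lama5, Lamc1 and Lamc3 within 0.47 of 0. The value of the downstream Lama3 probe is the fitted change, not the bound.

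Lama1, the α chain of embryonic laminin, moved with the pair of arrays that stood apart. Its levels were 0.67, 1.71, 2.58 and 1.57 on ATII BAPN arrays and 1.04, 1.45, 1.99 and 2.28 on ATII vehicle arrays. Fibroblast BAPN replicates 1, 2 and 4 had 0.93, −1.36 and 0.71, and fibroblast vehicle replicates 1 to 4 had 0.78, −1.51, 0.53 and 0.63. Both arrays numbered 2 were far below the other fibroblast arrays, as they were for the mesothelial regulator Wt1 (3.00, −4.04 and 1.62 with BAPN and 2.49, −4.42, 1.09 and 1.45 with vehicle). The summed linear level of the 4 mesothelial markers was 86.8 to 153 in ATII BAPN and 89.1 to 139 in ATII vehicle arrays, against 0.431 to 17.3 in fibroblast BAPN and 0.422 to 15.1 in fibroblast vehicle arrays. Msln, at 6.04 to 7.16 on ATII BAPN and 6.12 to 7.02 on ATII vehicle arrays, made up most of the ATII sums, and it was the 1 marker of 4 that passed as higher in ATII cells. Wt1 ran from 3.09 on an ATII vehicle array to 4.30 on an ATII BAPN array, above every fibroblast array. Its change in vehicle arrays, 3.75 ± 1.49, did not pass (adjusted p = 0.0699 by limma). Upk3b was at −1.58 to −0.02 on ATII BAPN and −1.73 to −0.72 on ATII vehicle arrays, below 1.22 and 0.91 on fibroblast BAPN replicates 1 and 4 and 1.41 and 1.30 on fibroblast vehicle replicates 1 and 4, while fibroblast vehicle replicate 3 was at −0.90 for Upk3b. The part of these markers in the Lama1 level was not tested.

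All ATII vehicle arrays exceeded all fibroblast vehicle arrays for Lama1, yet its change of 1.59 ± 0.60 did not pass (adjusted p = 0.0589). With replicate number as a block, whose basis is weak for these arrays, the adjusted p of Lama1 was 0.023, and it also passed with normexp background (adjusted p = 0.0335) and after correction for spot position (adjusted p = 0.0404). Without both fibroblast arrays numbered 2, the change of Lama1 was 1.05 ± 0.39 (adjusted p = 0.0651). In BAPN arrays it was 1.53 ± 0.65 with overlapping groups (adjusted p = 0.0937), and 0.81 ± 0.44 without those arrays (adjusted p = 0.224). The other 10 probes kept their direction and their side of the threshold without both arrays numbered 2, in vehicle and in BAPN arrays.

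**Figure D3:**
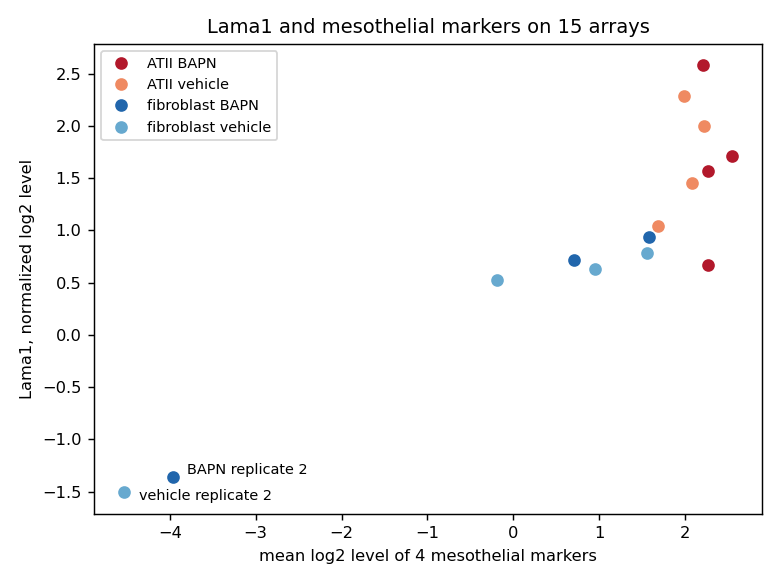
Lama1 level (vertical axis) against the mean log2 level of 4 mesothelial markers (horizontal axis) on 15 arrays, by group. Fibroblast BAPN replicate 2 and fibroblast vehicle replicate 2 lie alone at the lower left, at −1.36 and −1.51 for Lama1. The arrays fall into separate clusters, so no correlation was computed.

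Within the 8 ATII arrays, some laminin chains varied together with the epithelial markers. The mean level of 6 markers (Cdh1, Epcam, Krt8, Krt18, Krt19 and Cldn4) was 5.85, 5.43, 5.16 and 5.34 on BAPN replicates 1, 3, 4 and 5 and 5.90, 5.43, 5.45 and 5.08 on vehicle replicates 1 to 4. Arrays numbered 1 were highest and arrays numbered 4 lowest with either treatment. If equal numbers mark a shared cell preparation, which the labels do not say, the 8 arrays are fewer independent samples and the p-values below are too small. In all, 14 relations were computed after the levels had been seen, with exact permutation tests, two-sided, adjusted over the 14. The share of all probes that follow the marker mean as closely was not computed. Whether these relations are particular to laminin chains was therefore not tested.

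The epithelial chains followed the marker mean. For the upstream Lama3 probe Pearson's r was 0.963 (exact permutation p = 0.00342, adjusted p = 0.00856) and Spearman's rho 0.81 (adjusted p = 0.0436). For Lamb3 r was 0.923 (exact p = 0.00149, adjusted p = 0.00856) and rho 0.929 (adjusted p = 0.0156). Lama5 also rose with the markers, with r of 0.847 (exact p = 0.00367, adjusted p = 0.00856) and rho of 0.905 (adjusted p = 0.0213). Without the 2 arrays farthest from the median level of the laminin probe itself, chosen for each probe, r was 0.939 for Lama3, 0.951 for Lamb3 and 0.814 for Lama5. With the mean of each slide removed, r was 0.957, 0.866 and 0.754 in the same order, and slide 1 with 5 and slide 2 with 3 of these arrays were too small for a value each.

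Lama3 and Lamb3 also varied with each other on ATII arrays, with r of 0.93 for the upstream Lama3 probe (exact p = 0.00213, adjusted p = 0.00856; rho 0.833, adjusted p = 0.0431) and 0.877 for the downstream one (adjusted p = 0.0092 by the exact test). Lama1 went the other way, with r of −0.902 against the epithelial marker mean (exact p = 0.00506, adjusted p = 0.0092), although its rho of −0.738 did not pass (adjusted p = 0.0583). The relation of Lamc1 with the markers, r of −0.886 (exact permutation, adjusted p = 0.0324), rested on 2 arrays, since r was −0.294 without them. Lama2, Lamb2 and Lamc3 did not pass with r, nor did Lama4 (r −0.651, adjusted p = 0.0606, exact test), whose rho of −0.81 did (adjusted p = 0.0436).

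**Figure D4:**
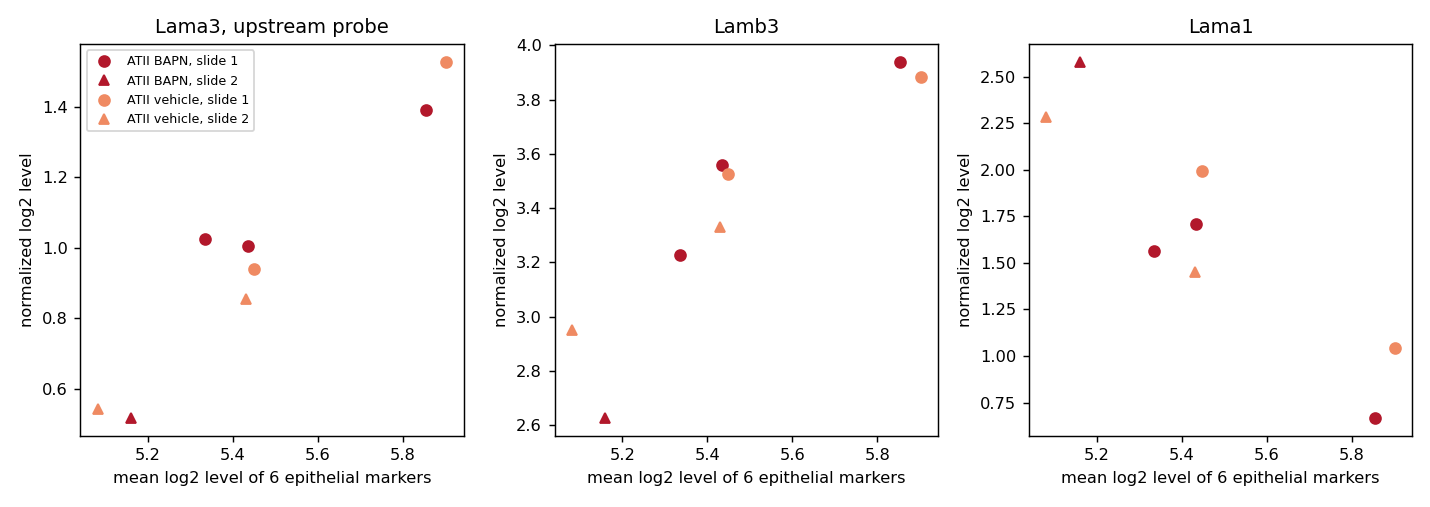
Levels of the upstream Lama3 probe, Lamb3 and Lama1 (vertical axes) on the 8 ATII arrays against the mean log2 level of 6 epithelial markers (horizontal axes), with slide shown by symbol. Lama3 and Lamb3 are high where the markers are high, with r of 0.963 and 0.923, and Lama1 is low there, with r of −0.902.

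The probes whose levels over all 15 arrays were most like those of a laminin chain are given as a description, since the gap between the cell types sets these correlations. For Lama3 they were P2rx2, Muc1 and the ATII cell adhesion receptor gene Gpr116, with r of 0.995, 0.993 and 0.993 over 15 arrays, and 0.957, 0.907 and 0.925 over the 8 ATII arrays. For Lamb3 they were Gm7850, the growth factor gene Pdgfb and Ifi202b (r of 0.998 each), with 0.983, 0.894 and 0.879 over ATII arrays but 0.301, −0.03 and 0.231 over the 7 fibroblast arrays. For Lama2 they were Eid1, Chpf and Speer2 (r of 0.981 for the first), and for Lama4 they were Tmem63a, Spg20 and Aen (0.982, 0.98 and 0.978).

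BAPN left the laminin chains of fibroblasts without a change past the threshold. Of 10 probes tested, 0 passed by limma, where 12.5% of all 38720 probes passed (1.92% higher, 10.6% lower). At an unadjusted p below 0.05, the upstream Lama3 probe and Lamb2 were lower. In either direction, 10067 of the 38720 probes met that level, so these 2 of 10 probes do not stand out. Without both arrays numbered 2, 5 of 36737 probes passed in all, and 0 laminin probes. The downstream Lama3 probe was not tested there because it was at background. The median change of the 10 probes was −0.18, against 0.00 for all probes, and 9 of 10 were below 0. The 95% interval lay inside a 2-fold change for 8 of 10 laminin probes and for 63.4% of all probes.

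For 2 of the 10 probes the fibroblast groups did not overlap, which held for 22.9% of all probes tested (6.43% higher, 16.4% lower). The upstream Lama3 probe, with −1.82, −1.93 and −1.56 with BAPN and −1.14, −1.12, −1.29 and −0.95 with vehicle, was lower on each BAPN array than on each vehicle array. Its change was −0.65 ± 0.23 (log2, SE, adjusted p = 0.0801), with a 95% interval of −1.13 to −0.16. It passed when only fibroblast arrays were fitted (adjusted p = 0.0467), and without both arrays numbered 2 it was −0.57 (adjusted p = 0.31). The probe lies at spot column 94. To the right of column 82 the median deviation of all probes from the cell type mean was −0.09, −0.21 and −0.03 on the BAPN arrays, and 0.07, 0.04, −0.01 and 0.16 on the vehicle arrays. After correction for spot position the change of Lama3 was −0.58 (adjusted p = 0.0895).

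Lamb2 had 2.66, 3.06 and 3.098 on fibroblast BAPN arrays, against 3.12, 3.31, 3.27 and 3.74 on fibroblast vehicle arrays. The highest BAPN array was just below the lowest vehicle array. The change was −0.42 ± 0.16 (adjusted p = 0.107), with a 95% interval of −0.76 to −0.08. A block for slide brought it past the threshold (−0.46, adjusted p = 0.0427), while within slide 1, which holds 1 fibroblast BAPN array, it was −0.54, and within slide 2 it was −0.44 (adjusted p = 0.208). The other 8 probes had changes of −0.26 to 0.01 in fibroblasts. For Lama1 the interval was wide, −1.42 to 1.40, since replicate 2 was low in both groups. Same-numbered BAPN and vehicle arrays were close for Lama1, at 0.93 and 0.78, −1.36 and −1.51, and 0.71 and 0.63. With replicate number as a block, whose basis is weak for these arrays, its change was 0.12 ± 0.49 (adjusted p = 0.911 by limma).

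In ATII cells, 0 of 11 laminin probes passed for BAPN against vehicle. By limma 0 of 38559 probes passed (0%), with 4060 at an unadjusted p below 0.05. The groups did not overlap for 0 of 11 laminin probes, and for 9.43% of all probes (3.11% higher, 6.32% lower). The laminin changes ran between −0.33 and 0.18 and had a median of −0.06, against −0.01 for all probes. The lowest was that of Lamc3, with levels of −3.02, −3.26, −3.17 and −3.38 on BAPN arrays and −2.75, −3.12, −2.86 and −2.76 on vehicle arrays, which overlapped (change −0.33 ± 0.15, unadjusted p = 0.0386, adjusted p = 0.465 by limma). The 95% interval lay inside a 2-fold change for 10 of 11 laminin probes, all but Lama1 (−1.36 to 1.24), and for 72.1% of all probes. For Lama3 and Lamb3, the chains higher in ATII cells than in fibroblasts, the intervals were −0.43 to 0.47 (upstream Lama3 probe) and −0.68 to 0.51 (Lamb3).

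The difference between the BAPN effects (ATII cells minus fibroblasts) passed for 0 of 11 laminin probes and for 0 of 41163 probes in all (0%; 5834 at an unadjusted p below 0.05, limma). The upstream Lama3 probe had the difference of largest size among the laminin probes, 0.67 ± 0.31 (unadjusted p = 0.0501, adjusted p = 0.353). Effects of BAPN on the laminin chains were thus not shown to differ between the cell types.

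**Figure D5:**
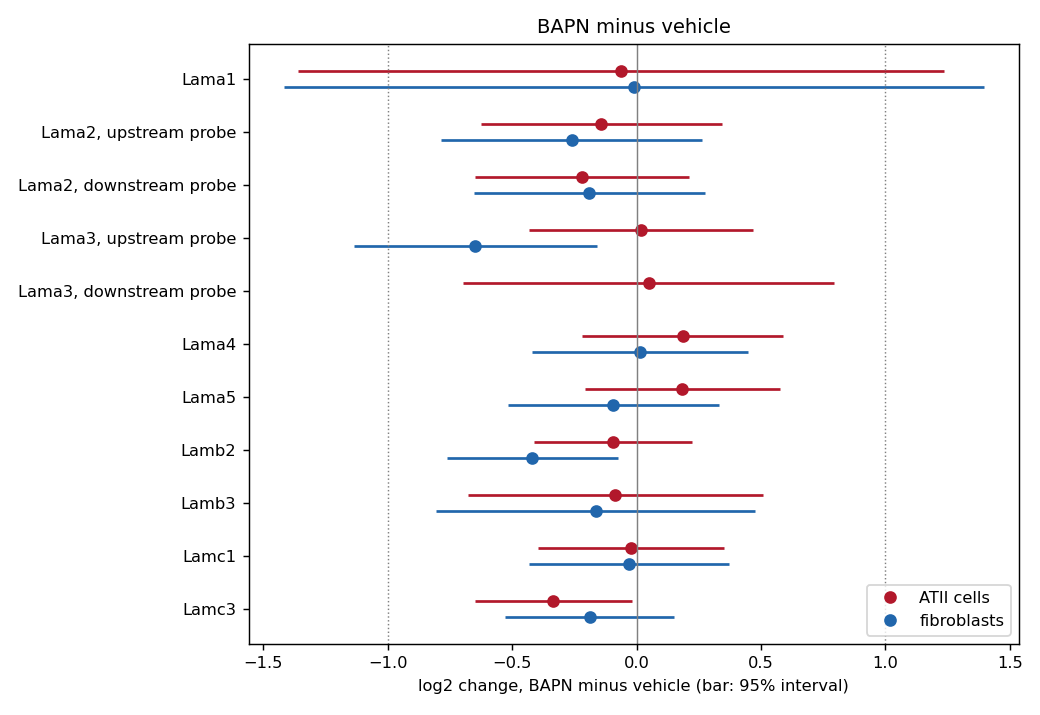
Log2 change of each laminin probe with BAPN minus vehicle (horizontal axis) in ATII cells and in fibroblasts, with 95% intervals. Dotted lines mark a 2-fold change, which only the interval of Lama1 (both cell types) and that of the upstream Lama3 probe (fibroblasts) cross. The downstream Lama3 probe has no value in fibroblasts.

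Lists of genes that act with laminins were counted against all probes, of which 14.7% were higher and 18.8% lower in ATII vehicle cells, and 13.8% higher and 17.2% lower with BAPN. Of 14 receptors and partners, 6 were higher and 3 lower in ATII vehicle cells (median change 0.41, against −0.15 for all probes), and 6 were higher and 2 lower with BAPN. Without both fibroblast arrays numbered 2, 6 were higher and 2 lower in either comparison. The integrin genes Itgb4 (4.31 ± 0.26, 19.8-fold, adjusted p = 4.39e-08), Itga2 (3.16 ± 0.42) and Itga3 (2.92 ± 0.39) and the syndecan gene Sdc1 (2.42 ± 0.17) were higher. With BAPN, Itga1, a collagen and laminin receptor subunit, was among those of largest change and was lower (−2.55 ± 0.39, adjusted p = 0.000224). Itga1 was lower with vehicle too, by −2.20 without both fibroblast arrays numbered 2 (adjusted p = 0.00199 by limma). Itgb4 pairs with Itga6 in the receptor of hemidesmosomes. Of 6 hemidesmosome proteins, 2 were higher (Itgb4 and Itga6, 0.86 ± 0.12) and 1 lower (the linker Plec, −0.38 ± 0.12, adjusted p = 0.0239) in ATII vehicle cells. Without both fibroblast arrays numbered 2, 3 were higher and 0 lower with vehicle, with Plec at −0.34 (adjusted p = 0.0804). In BAPN arrays 2 were higher and 1 lower, with and without the arrays numbered 2. There Plec was at −0.47 in the main fit (adjusted p = 0.0123 by limma) and at −0.48 without those arrays (adjusted p = 0.0391).

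Among 20 other basement membrane proteins tested, 4 were higher and 7 lower in ATII vehicle cells (median −0.33; 14.7% and 18.8% of all probes), and 5 higher and 7 lower with BAPN (median −0.36). Without both fibroblast arrays numbered 2, the counts were 4 higher and 9 lower, and 5 higher and 10 lower. The collagen IV genes Col4a3 (at least 8.84-fold by the bound used for Lama3, at background in fibroblasts) and Col4a4 (2.62 ± 0.19, 6.15-fold) were higher in ATII cells. Col4a3 counts among the higher genes in both comparisons. It entered the test only through the ATII arrays, where it is high, so it had to differ. The calcium-binding matrix gene Smoc1 (−6.01 ± 0.23, 64.4-fold lower) and the laminin-binding nidogen gene Nid2 (−3.09 ± 0.18, 8.50-fold lower) were lower. Of 10 assembly and processing genes tested, 3 were higher and 4 lower with vehicle (median 0.02), and 3 of 9 were higher and 3 lower with BAPN (median −0.31). The proteases Mmp2 (1.55 ± 0.28) and Bmp1 (0.82 ± 0.15) were higher in ATII cells. The protease gene Tll1 (−0.72 ± 0.26, adjusted p = 0.0461) and the dystroglycan glycosyltransferase gene Large (−0.64 ± 0.11) were lower with vehicle. There Tll1 did not pass without both arrays numbered 2 (−0.66, adjusted p = 0.102). With BAPN Tll1 was lower by −1.37 ± 0.28 (adjusted p = 0.00209 by limma), and it still passed without both arrays numbered 2 (−1.18, adjusted p = 0.018). Without them, 2 of 9 assembly and processing genes were higher and 3 lower in either comparison.

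With BAPN against vehicle in fibroblasts, 1 of 19 other basement membrane proteins, 1 of 14 receptors and partners, 1 of 6 hemidesmosome proteins and 1 of 9 assembly and processing genes passed by limma, where 12.5% of all probes passed. The receptor and the hemidesmosome gene are both Itga6. In ATII cells 0 genes of these lists passed, where 0% of all probes did. Col15a1, a collagen of the basement membrane zone, was at −4.37 ± 0.63 with BAPN and −3.20 ± 0.37 with vehicle (SD, n = 3 and 4; change −1.17 ± 0.30, adjusted p = 0.0247). Itga6 was higher (0.42 ± 0.13, adjusted p = 0.0489), as was Pomt2, an enzyme that starts dystroglycan's laminin-binding sugar chains (0.47 ± 0.12, adjusted p = 0.0209). Without both arrays numbered 2, the changes were −0.97 (adjusted p = 0.0934), 0.44 (adjusted p = 0.152) and 0.43 (adjusted p = 0.149), and none passed.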

How the data were processed

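Cy3-labelled cRNA of 1 sample went onto each array, per the labels' protocols. Per the file headers, the deposited scanner files hold processed spot intensity values with spatial and multiplicative detrending on and background correction off; arrays were not scaled to each other. The software was Agilent Feature Extraction 10.7.3.1, per the submitters' processing notes. The deposited series table holds log2 values whose sorted columns differ by at most 0.0032, with a median of 5.96 in each column, so its columns share 1 distribution; it was used as an alternative. How it was made is not given in the sources used here.

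Intensities were log2-transformed, the array's 75th percentile over non-control probes was subtracted, outlier-marked spots were dropped and a probe's spots averaged, which removed 469 probes without a value on some array. Probes that were well above background on 3 or more arrays within a comparison were fitted with limma 3.58.1 (R 4.3.3), a mean per group over all 15 arrays (11 residual degrees of freedom) and empirical Bayes moderation. Two-sided p-values were Benjamini-Hochberg adjusted over all probes tested, with a threshold of 0.05; the step was tested on simulated data. Other steps used numpy 2.4.6 and pandas 2.3.3 in Python 3.11.15. The files' gene names were kept.

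Groups came from the labels. An ATII BAPN array labelled as a replacement carries no number and is called replicate 5. No fibroblast BAPN array numbered 3 was used here. Deviations from the group means of same-numbered ATII and fibroblast vehicle arrays correlated with r of 0.219, 0.243, 0.31 and 0.313. With BAPN, r between the cell types was 0.136 and 0.217 for replicates 1 and 4. These values meet the limit of 0.1 set for taking numbers as pairs, but the labels do not say that they pair. Same-numbered arrays of the cell types also shared a slide, so pairing and slide cannot be told apart by these values. For vehicle replicates 1 and 2 an array of another number correlated more highly (up to 0.297 and 0.293), as for BAPN replicate 4 (0.349). The correlations of BAPN with vehicle arrays did not all exceed 0.1 (−0.077 to 0.147 in fibroblasts, −0.127 to 0.289 in ATII cells).

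All members are named, and from the other lists at most 4 genes per comparison, those of largest change past the threshold. The members and lists were chosen with earlier results of these data known. Alternatives covered background, normalization, the filter on dim probes, slide, replicate number, spot position, probes per gene, the samples fitted and each array left out.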

Additional observations from a re-analysis of the deposited data

Results flagged for a closer look

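Lama1 on fibroblast vehicle replicate 2 was far from the others of its group, at −1.51 against 0.78, 0.53 and 0.63 on replicates 1, 3 and 4. The gap to the nearest array was 0.888 of the group's range. It was the 1 group marked in this way among 33 groups of 4 arrays tested, and chance marks about 1 in 20. Fibroblast BAPN replicate 2 was also low, at −1.36, but its group of 3 was too small for this rule. On both arrays the mesothelial markers were low as well (mean −4.53 and −3.97), and their part in the Lama1 level was not tested.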

How the results depend on the processing

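The 14 changes past the threshold between the cell types kept their direction in all 278 alternative values, and 2 of these values missed the threshold, both for Lama4 on slide 2 alone. They include 17 values per comparison of the downstream Lama3 probe. It entered the main test only through the ATII arrays and so had to differ. Changes that did not pass turned sign in 4 values with vehicle arrays, 8 with BAPN arrays, 33 for BAPN in fibroblasts, 28 in ATII cells and 46 for the difference of effects. The count of laminin probes for BAPN in fibroblasts was 1 with slide as a block (Lamb2) and 1 with only the groups compared (Lama3), against 0. Leaving out each array in turn gave 7 to 7 probes with vehicle, 7 to 8 with BAPN arrays and 0 to 0 in the others. With the replicate block, 8 probes passed in the vehicle comparison (Lama1 added) and 7, 0, 0 and 0 in the others. With normexp the downstream Lama3 change was 3.53 (vehicle) and 3.57 (BAPN arrays) in place of 7.26 and 7.50, and that of Lamb3 5.95 and 6.00 in place of 7.29 and 7.37. That probe failed the filter on low values on either slide alone with vehicle and on slide 2 with BAPN.

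Counts over all probes moved more. BAPN in fibroblasts gave 4842 (742 higher, 4100 lower), but 576 on slide 1, 1794 with the replicate block, 2982 with only the groups compared, 1603 to 4634 with an array left out (lowest without BAPN replicate 2; 2219, 2325 and 2377 without vehicle replicate 2, vehicle replicate 4 and BAPN replicate 4), 5 without both arrays numbered 2, and 2469 higher and 2811 lower after position correction. ATII cells gave 3284 on slide 2 alone, against 0. Slide 1 holds 1 fibroblast BAPN array and slide 2 holds 1 ATII BAPN array, each assumed in these fits to vary like the other groups, so counts that use them on a slide alone (576, 128, 3284 and 2457) rest on an arm of 1 sample. The difference of effects gave 128 on slide 1, and 632 and 40 without ATII BAPN replicate 4 and fibroblast BAPN replicate 1, against 0. The cell types gave 8171 and 6199 on slides 1 and 2 with vehicle, against 13091, and 2457 on slide 2 with BAPN, against 12028. With vehicle the split was 5732 higher and 7359 lower, and 6528 and 6131 after quantile scaling. With BAPN it was 5360 and 6668, 4026 and 7678 after position correction, and 7195 and 6787 without ATII BAPN replicate 4. Over all probes the median difference of effects was 0.08, and −0.05 after position correction. The causes were not tested. Signal over background limits the downstream Lama3 probe in fibroblasts.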
